A study of Homo sapiens with 10 samples.

Results

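Cells that received the guide labelled INT were compared with cells that received the guide labelled TOP1, both with the same transcriptional activator. The comparison uses 4 of the 10 RNA-seq libraries of the series, 2 for each guide, chosen by the guide named in each value column. It covers 11574 of 20246 measured features, those with a gene name and a mean of at least 1 FPKM over all 10 libraries. FPKM is the number of fragments per kilobase of transcript, scaled to the fragments mapped in a library.

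All groups were HEK293FT cells, a readily transfected line of human embryonic kidney origin, which carried Gaussia and Cypridina luciferase reporters integrated by lentivirus. In the INT group and in the TOP1 group, 125000 cells per well were given 59 ng of plasmid for dCas9-VP64, 11.6 ng of a plasmid that makes the guide from a U6 promoter, 679.4 ng of a carrier plasmid and, as reagent, Lipofectamine (2.25 uL). Both guides target the Gaussia reporter. The sgRNA and P4P6 groups received their own guide with the same activator, and the CasVP group received dCas9-VP64 with no guide. Transfection was transient, 1 day after plating, and poly(A)-selected RNA was taken 3 days later, so each library mixes transfected and untransfected cells. What sets the INT, TOP1 and P4P6 guides apart from one another is not in the labels. The guide called TOP1 and the gene TOP1 share only their name here. Nothing in the labels ties the libraries of 1 guide to different cultures, so p-values measure only the spread between these libraries, which may be technical.

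dCas9 is a Cas9 protein that binds the DNA matched by its guide RNA but does not cut it, and VP64 is a viral activation domain that recruits the transcription machinery. Placed at a promoter, the fusion raises the transcription of the gene there, and the level of the targeted transcript reads out how well guide and protein work together. A guide that carries extra RNA can still direct dCas9, which is the basis of displaying RNA at a chosen locus. Gaussia luciferase is the targeted reporter, and Cypridina luciferase is a second secreted luciferase that no guide in the series targets.

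The estimated depth of the 4 libraries differed most between the TOP1 libraries. Counts of reads were not used here, and the steps between low FPKM values gave estimates of about 25500000 and 23000000 fragments for the INT libraries and about 28700000 and 20900000 for the TOP1 libraries. Of 18 markers of HEK293 cells, all were found and 16 passed the filter on FPKM, among them VIM, LIN28B and HOXA9. Of 25 markers of other cell types, 24 were found and 1, KRT5, was at 0 in every library. Only the fibroblast collagen COL1A1 passed the filter, and the summed level of the list was 5.5 and 6.5 FPKM in INT libraries, against 4.9 and 5.5 FPKM in TOP1 libraries. The INT and TOP1 groups each listed their own guide transcript, at 1.38 and 0 FPKM in INT libraries for the INT guide, and at 0.331 and 0.441 FPKM in TOP1 libraries for the TOP1 guide. The INT guide was listed at 0 in both TOP1 libraries and the TOP1 guide at 0 in both INT libraries. U6 transcripts carry no poly(A) tail, so these levels do not measure how much guide was present. The transcript of the guide labelled sgRNA was listed at 0 in all 4 INT and TOP1 libraries, at 233 and 0 FPKM in sgRNA libraries and at 109 and 0 FPKM in P4P6 libraries, so P4P6 replicate 0 listed a guide that its label does not name. The P4P6 libraries enter the main test through the filter on mean FPKM and the estimate of spread. With them left out of the fit but not of the filter, 1 feature, the dCas9-VP64 transcript described below, was called.

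The targeted reporter was more abundant with the INT guide than with the TOP1 guide in every pairing of libraries. Gaussia had 356 and 366 FPKM in INT libraries, against 257 and 273 FPKM in TOP1 libraries. Both INT libraries lay above both TOP1 libraries, and the other groups had mean Gaussia levels of 822 FPKM with the sgRNA guide, 176 FPKM with the P4P6 guide and 23.3 FPKM in CasVP cells. The means were 361 ± 7.33 FPKM for INT and 265 ± 11.2 FPKM for TOP1 (SD, n = 2 each), a ratio of 1.36. On the log2(FPKM + 1) scale, which understates the fold changes of low transcripts, the difference was 0.45 with a standard error of 0.07. Tested by limma over all features with Benjamini-Hochberg adjustment, the unadjusted p was 9.17e-05 and the adjusted p was 0.275, above the threshold of 0.05. The 95% interval of the difference was 0.29 to 0.60.

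The transcript of the activator itself, supplied by the same amount of plasmid, differed in the same direction. dCas9-VP64 had 25.6 and 25.9 FPKM in INT libraries, against 16.1 and 17.1 FPKM in TOP1 libraries. The groups did not overlap, and the gap between them was larger than the difference between the libraries of either guide. The ratio of the means was 1.55, the log2 difference was 0.60 ± 0.07 (SE) with a 95% interval of 0.45 to 0.76, and the adjusted p by limma was 0.0615, the smallest of all 11574 features. It passed 0.05 when features under a mean of 5 FPKM were left out (adjusted p = 0.0473), when libraries were weighted by their quality (0.0197) and when the P4P6 libraries were left out of the fit (0.0047). The adjusted p rose to 0.0961 with the 4 INT and TOP1 libraries alone. Without the FPKM filter it was 0.137, and without limma's intensity trend it was 0.189. Leaving out 1 library gave log2 differences of 0.56 to 0.65. In the other groups the mean was 23.7 FPKM with sgRNA, 18.6 FPKM with P4P6 and 14.7 FPKM in CasVP, so the TOP1 group lay between CasVP and P4P6 and the INT group lay above all. In bulk RNA, fewer transfected cells and less plasmid transcript per cell cannot be told apart.

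The untargeted reporter was low in both groups and also stood higher with INT. Cypridina had 1.45 and 2.03 FPKM in INT libraries, against 1.14 and 1.01 FPKM in TOP1 libraries. The groups did not overlap, with a ratio of 1.62 between the means, a log2(FPKM + 1) difference of 0.39 and an adjusted p of 0.275 by limma. At this low level the difference depended on the pseudocount, with 0.63 at a pseudocount of 0.1, and it was 0.24 without INT replicate 1. The other groups had means of 1.5 FPKM with sgRNA, 1.63 FPKM with P4P6 and 1.27 FPKM in CasVP.

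Set against the activator in the same library, the order of the guides was the other way round. Gaussia per dCas9-VP64, a ratio of FPKM, was 13.9 and 14.2 in INT libraries, against 16.0 and 15.9 in TOP1 libraries. Both INT values lay below both TOP1 values, and the ratio of the means, INT over TOP1, was 0.879. No test of this ratio was run; an exact permutation test of 2 libraries against 2 cannot give a two-sided p below 0.333. The same quantity averaged 34.7 with sgRNA, 9.56 with P4P6 and 1.58 in CasVP, so INT and TOP1 stood next to each other in the order of the guides. Gaussia per Cypridina was 245 and 180 in INT libraries, against 225 and 270 in TOP1 libraries, which overlap. How much of the Gaussia difference goes with the difference in activator transcript was not tested.

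**Figure D1:**
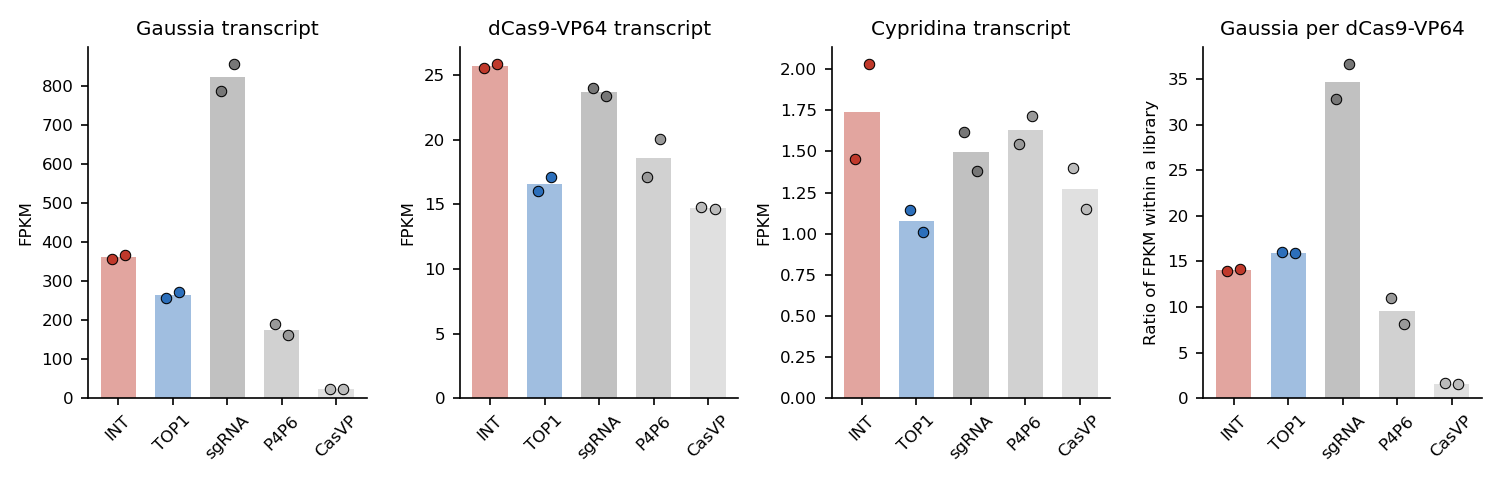
FPKM of Gaussia, dCas9-VP64 and Cypridina and the ratio of Gaussia to dCas9-VP64 by group, with a point for each of the 10 libraries and a bar from 0 to the group mean. INT lies above TOP1 for all 3 transcripts (means of 361 and 265 FPKM for Gaussia), and below it for the ratio (14.04 and 15.97).

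Outside the constructs, the INT and TOP1 transcriptomes were close. No feature passed an adjusted p of 0.05 by limma, in either direction, so 0 of 11574 features were called (0.0%), and the smallest adjusted p of an endogenous gene was 0.275. Without adjustment, 1641 features (14.2%) were under 0.05, of which 709 (6.13%) were higher in INT and 932 (8.05%) were lower. The count was 1038 without TOP1 replicate 0. The split between the directions turned with the scaling, with 811 higher and 805 lower after median-of-ratios rescaling and 681 higher and 481 lower after quantile normalization. The libraries of the guides did not overlap for 5396 features (46.6%), 2585 of them higher in INT (22.3%) and 2811 lower (24.3%). The median difference over all features was -0.002 on the log2 scale.

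For 98.6% of endogenous genes the 95% interval of the difference in log2(FPKM + 1) lay within the log2 of 1.5 either way. For genes near 1 FPKM this scale compresses differences, so their FPKM may differ by more. Over all tested features, the SD of the log2 difference was 0.141 between the INT libraries and 0.138 between the TOP1 libraries, against 0.143 to 0.157 for an INT library and a TOP1 library. Endogenous genes with a difference of at least 0.5 numbered 10. On the first principal component of the 10 libraries, which held 34.0% of the variance, the INT libraries were at 0.46 and 3.31 and the TOP1 libraries at -8.09 and -5.92. The TOP1 libraries lay beside the sgRNA libraries, at -7.44 and -3.15, the INT libraries beside the CasVP libraries, at -1.64 and 0.88, and the P4P6 libraries apart at 6.06 and 15.5.

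**Figure D2:**
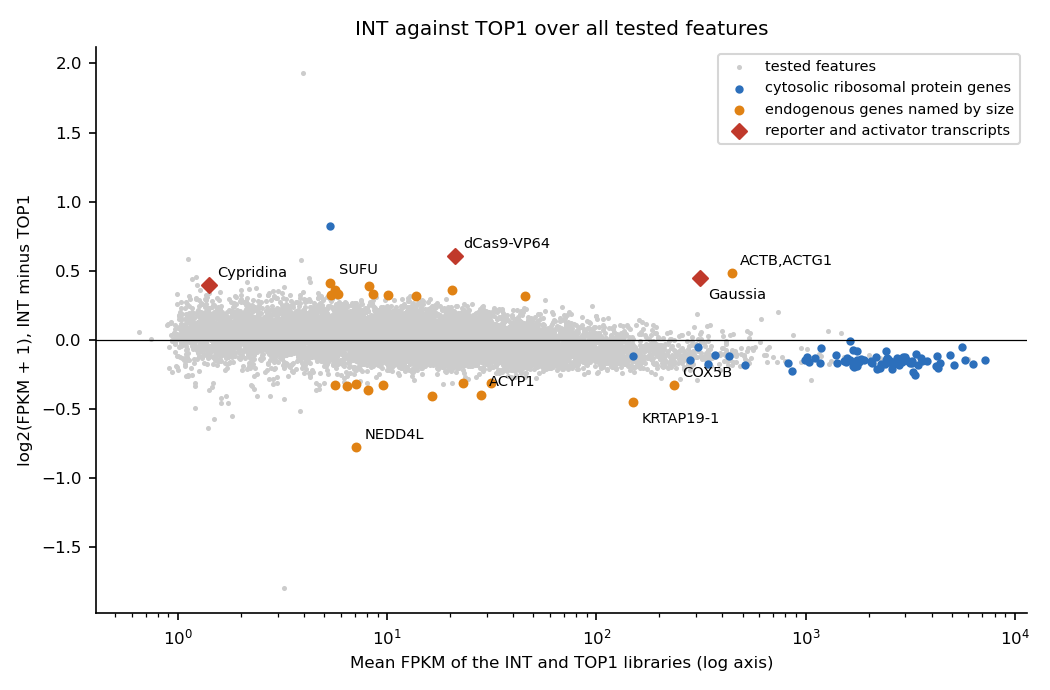
Difference between INT and TOP1 on the log2(FPKM + 1) scale for each tested feature against its mean FPKM (log axis), with the reporter and activator transcripts as diamonds, the genes named by size in orange and the cytosolic ribosome genes in blue. The points are centred at a median of -0.002, and no feature reached an adjusted p of 0.05.

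The endogenous genes named next are those with the largest differences among genes whose libraries did not overlap and whose mean was at least 5 FPKM, 12 in each direction. None passed the adjusted test, and the adjusted p was 0.275 to 0.283 for those above 0 and 0.275 to 0.467 for those below. Since they were picked by size after no gene passed, their values are a description.

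Higher in INT, the first was the joint feature of ACTB and ACTG1, the cytoplasmic actins, with 427 and 618 FPKM in INT libraries, against 364 and 370 FPKM in TOP1 libraries. The INT libraries differed from each other more than the lower one differed from TOP1, and with INT replicate 0 left out the feature passed the test (0.75, adjusted p = 0.00135), and the high value is that of INT replicate 1 alone. Several of the others had tighter libraries. SUFU, an inhibitor of Hedgehog signalling, had 6.42 and 6.08 FPKM in INT libraries, against 4.62 and 4.28 FPKM in TOP1 libraries, a log2 difference of 0.41 ± 0.10 (SE). LRP1, a large endocytic receptor, had 6.66 and 6.46 FPKM in INT libraries, against 4.83 and 5.22 FPKM in TOP1 libraries (0.33 ± 0.07). For both genes the libraries of a guide lay closer together than the guides. LTBP4, a matrix protein that binds latent TGF-beta, had 22.7 and 23.5 FPKM in INT libraries, against 19.7 and 16.1 FPKM in TOP1 libraries (0.36 ± 0.08). EFNA1, an ephrin ligand, had 10.8 and 12.0 FPKM in INT libraries, against 8.35 and 9.40 FPKM in TOP1 libraries (0.33 ± 0.08).

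Genes of RNA processing and metabolism are among the same 12. CPSF1, the largest subunit of the complex that cleaves pre-mRNA for polyadenylation, had 49.8 and 51.9 FPKM in INT libraries, against 38.9 and 42.3 FPKM in TOP1 libraries. GYS1, muscle-type glycogen synthase, had 16.1 and 14.5 FPKM in INT libraries, against 11.8 and 12.4 FPKM in TOP1 libraries. Also among them were FHOD1, a formin of the actin cytoskeleton, INPP5J, an inositol polyphosphate phosphatase, YPEL3 and C19orf55, with log2 differences of 0.33, 0.32, 0.38 and 0.36. Across the 5 groups, TOP1 had the lowest mean for 12 of 12 of these genes, while the highest mean was in P4P6 for 10, in CasVP for EFNA1 and in INT for ACTB and ACTG1.

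Lower in INT, the first by size was NEDD4L, a ubiquitin ligase that limits sodium channels at the cell surface, with 4.55 and 4.66 FPKM in INT libraries, against 14.1 and 5.16 FPKM in TOP1 libraries. Only TOP1 replicate 0 stood far above, and the log2 difference of -0.78 had a standard error of 0.34. KRTAP19-1, a keratin-associated protein gene, had 117 and 135 FPKM in INT libraries, against 185 and 160.5 FPKM in TOP1 libraries (-0.45 ± 0.16). ACYP1, an acylphosphatase, had 26.2 and 21.8 FPKM in INT libraries, against 32.7 and 31.1 FPKM in TOP1 libraries (-0.40 ± 0.10). For both, the groups are separate while the libraries of one guide differ visibly. ALX1, a homeobox factor of craniofacial development, had 6.32 and 7.64 FPKM in INT libraries, against 8.66 and 9.86 FPKM in TOP1 libraries. ZCCHC12, a zinc-knuckle protein, had 29.2 and 26.7 FPKM in INT libraries, against 35.4 and 34.5 FPKM in TOP1 libraries (-0.31 ± 0.07).

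COX5B, a nuclear-encoded subunit of cytochrome c oxidase, had 205 and 210 FPKM in INT libraries, against 301 and 225 FPKM in TOP1 libraries (-0.33 ± 0.12). Its INT libraries agree closely and its TOP1 libraries do not. The other six were IFI27L2, IQCH, HSD17B8, a hydroxysteroid dehydrogenase, WDYHV1, an N-terminal glutamine amidase, C12orf45 and the joint feature of CARD9 and DNLZ, with log2 differences of -0.41, -0.34, -0.33, -0.32, -0.32 and -0.33. TOP1 had the highest group mean for 10 of the 12, and the lowest mean was in INT for 6 and in P4P6 for 6. Across both directions, TOP1 was at an end of the order for 22 of 24 genes and INT for 7, while P4P6 was lowest for 6 and highest for 10. The genes were chosen by their difference between INT and TOP1, which fixed the order of these groups against each other. Why TOP1 stood at an end more often than INT was not tested.

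**Figure D3:**
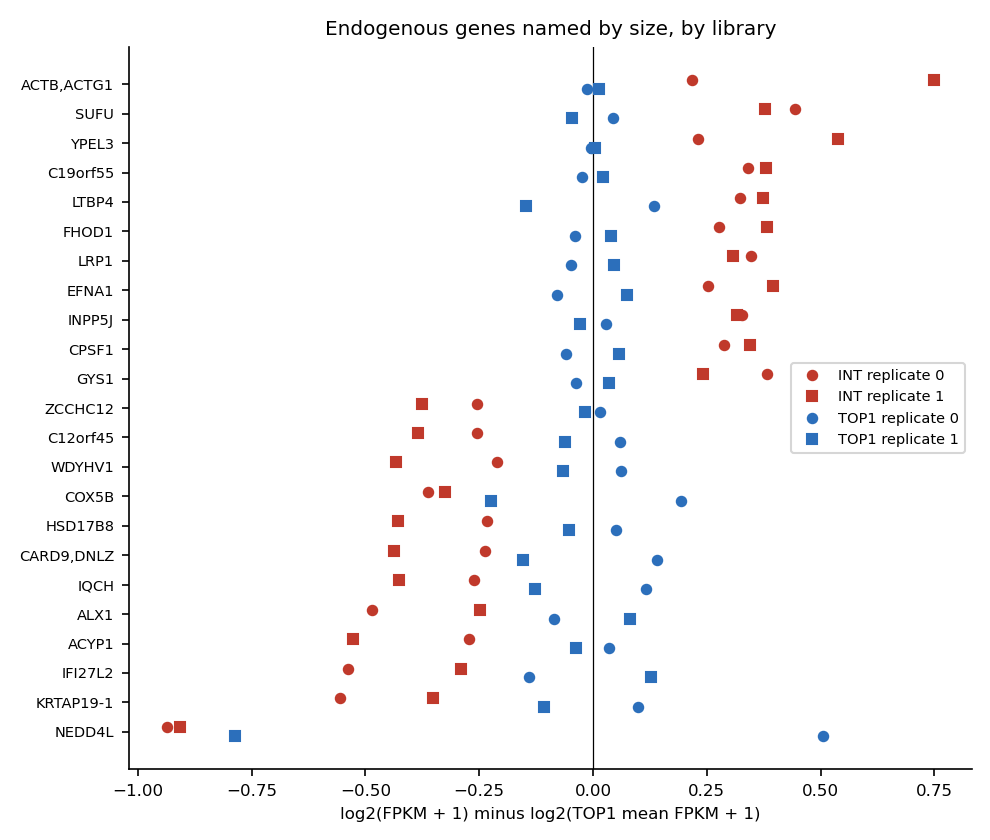
Endogenous genes of largest difference, as log2(FPKM + 1) in each INT and TOP1 library minus the value at the TOP1 mean. INT points lie to one side of the TOP1 points in every row, and the scatter within a guide is widest for NEDD4L in TOP1 and ACTB and ACTG1 in INT.

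Genes of the cytosolic ribosome stood lower in INT as a group, by a small amount. Of 78 tested genes for its subunits, 1 was above 0, 72 had both INT libraries below both TOP1 libraries and 0 the reverse, where 24.3% and 22.3% of all features did so. None passed the adjusted test, and 49 were lower and 0 higher at an unadjusted p under 0.05, against 8.05% and 6.13% of all features. The median difference was -0.16, against -0.002 over all tested features. Without 1 library it lay between -0.21 (INT replicate 0 left out) and -0.10 (INT replicate 1 left out). It was -0.13 without TOP1 replicate 0 and -0.18 without TOP1 replicate 1. The number lower at an unadjusted p under 0.05 fell without INT replicate 1 and without either TOP1 replicate, and rose without INT replicate 0. Over all features that number was smaller in each case. RPL27, a protein of the large subunit, had 3112 and 2974 FPKM in INT libraries, against 3648 and 3631 FPKM in TOP1 libraries. RPL37A, of the same subunit, had 3058 and 2959 FPKM in INT libraries, against 3669 and 3424 FPKM in TOP1 libraries. For both, each INT library lay below each TOP1 library. RPS27A, which encodes ubiquitin fused to a small-subunit protein, had 2083 and 1967 FPKM in INT libraries, against 2396 and 2300 FPKM in TOP1 libraries.

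Summed over the list, the FPKM was 185195 and 172165 in INT libraries, against 202672 and 194944 in TOP1 libraries. As the median deviation from the mean of all libraries, the list stood at 0.01 and -0.10 in INT libraries, against 0.14 and 0.09 in TOP1 libraries. The sgRNA libraries, at 0.13 and 0.08, lay with TOP1, and the CasVP libraries, at 0.03 and -0.01, lay with INT replicate 0. INT replicate 1 lay between the CasVP and P4P6 libraries, and the P4P6 libraries were lowest at -0.14 and -0.23.

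Genes of the mitochondria followed the same order with smaller differences. Of 56 tested genes for mitochondrial ribosome proteins, 7 were above 0, 40 had INT libraries below TOP1 libraries without overlap (24.3% over all features), 16 were lower and 0 higher at an unadjusted p under 0.05 (8.05% lower over all features) and the median was -0.11. MRPS23 had 82.7 and 77.2 FPKM in INT libraries, against 95.7 and 94.4 FPKM in TOP1 libraries. MRPL20 had 87.8 and 80.0 FPKM in INT libraries, against 101.5 and 96.2 FPKM in TOP1 libraries. Of 69 tested genes for nuclear subunits of the respiratory chain and ATP synthase, 6 were above 0, 46 were lower and 1 was higher without overlap, 28 were lower and 0 higher at an unadjusted p under 0.05 and the median was -0.11. The shares over all features are those just given. NDUFA2, a subunit of complex I, had 94.7 and 92.4 FPKM in INT libraries, against 107 and 113 FPKM in TOP1 libraries. SDHA, the flavoprotein of complex II, was on the other side, with 61.4 and 55.2 FPKM in INT libraries, against 52.7 and 55.3 FPKM in TOP1 libraries, which overlap. Without INT replicate 1 the medians were -0.11 for the mitochondrial ribosome and -0.08 for the respiratory chain. The number lower at an unadjusted p under 0.05 was then smaller in both lists and over all features.

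These differences shrank after quantile normalization, stayed after median-of-ratios rescaling, and went with transcript length, GC content and abundance. After median-of-ratios rescaling the median of the cytosolic ribosome genes was -0.147, with 2 above 0 and 76 below. Those of the mitochondrial ribosome and respiratory chain were -0.099 and -0.104. After quantile normalization, which gives all libraries the same distribution, the median of the cytosolic ribosome genes was -0.0069, with 28 above 0, 42 below and the rest at 0. Those of the mitochondrial ribosome and respiratory chain were -0.03 and -0.04. The step itself pulls a shift shared by the most abundant genes toward 0, so its outcome for the cytosolic ribosome was partly fixed in advance. That list held 185195 of the 567580 FPKM of all tested features in INT replicate 0. Over all genes with a known length, the median difference was -0.06 in the shortest quintile of transcripts (29.4% of genes above 0) and 0.03 in the longest quintile (63.7%). It was -0.03 in the quintile of lowest GC content and 0.07 in the quintile of highest (70.5%), and 0.04 in the quintile of lowest mean FPKM and -0.07 in the quintile of highest (22.9%). With the trends on length and GC removed, the median of the cytosolic ribosome genes was -0.09, that of the mitochondrial ribosome -0.05 and that of the respiratory chain -0.04, and 830 features remained under an unadjusted p of 0.05. Of the cytosolic ribosome genes, 5 were then above 0 and 73 below. At an unadjusted p under 0.05, 17 of them were lower and 0 higher, against 452 lower and 378 higher of 11513 features. The part of abundance in the lists was not tested.

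**Figure D4:**
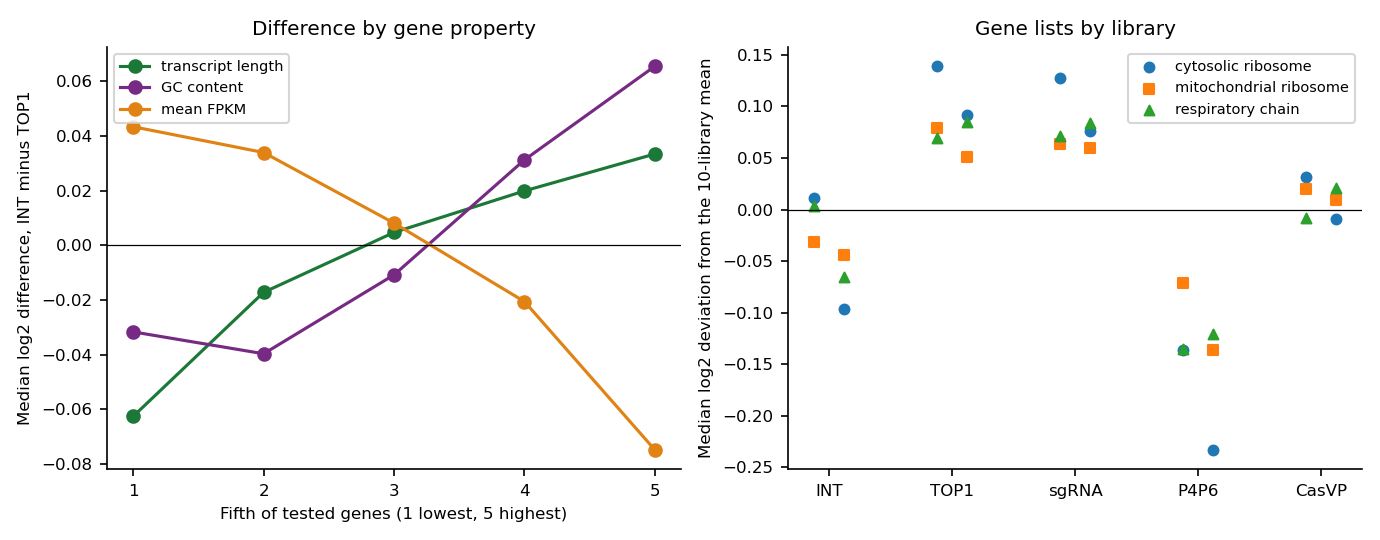
Median difference between INT and TOP1 on the log2 scale in quintiles of the tested genes by transcript length, GC content and mean FPKM (left), and the median deviation of 3 gene lists from the mean of the 10 libraries in each library (right, replicate 0 left of replicate 1). The difference climbs with length (-0.06 to 0.03) and declines with mean FPKM (0.04 to -0.07), and the INT libraries lie below the TOP1 libraries for each list.

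In the remaining lists no member passed the adjusted test either, and several counts turned on 1 library or on the scaling. At an unadjusted p under 0.05, all features hold 6.13% higher and 8.05% lower. Over all features there were 681 higher and 481 lower after quantile normalization. With length and GC trends removed there were 378 higher and 452 lower of 11513. Both counts were also smaller than in the main fit when any 1 of the 4 libraries was left out. Replication-dependent histone genes, whose main transcripts lack a poly(A) tail, were low: HIST1H3B had 1.06 and 1.57 FPKM in INT libraries, against 2.34 and 2.00 FPKM in TOP1 libraries, and 4 of 18 tested genes were above 0 with a median of -0.12. That median was -0.04 without INT replicate 0, -0.21 without INT replicate 1 and -0.015 with length and GC trends removed. Of 27 genes of the integrated and unfolded protein stress responses, 5 were above 0, 7 were lower and 1 was higher at an unadjusted p under 0.05 and the median was -0.08. The median was -0.07 without INT replicate 0, -0.08 without INT replicate 1 and -0.07 without TOP1 replicate 0. In each of these fits fewer were lower at an unadjusted p under 0.05, as over all features. After quantile normalization 3 were higher and 2 lower with a median of -0.04. ASNS, which makes asparagine and is a target of ATF4, had 369 and 352 FPKM in INT libraries, against 434 and 405 FPKM in TOP1 libraries. XBP1, a transcription factor of the unfolded protein response, had 202 and 188 FPKM in INT libraries, against 227 and 220.5 FPKM in TOP1 libraries. SLC7A11, the cystine transporter, was the gene higher in INT, with 28.1 and 31.2 FPKM in INT libraries, against 26.7 and 26.3 FPKM in TOP1 libraries.

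Of 34 tested cell cycle genes, 9 were above 0, 6 were lower and 0 higher at an unadjusted p under 0.05, and the median was -0.07. The median was -0.05 without INT replicate 1 and -0.05 without TOP1 replicate 0. In both fits fewer were lower at an unadjusted p under 0.05, as over all features. With length and GC trends removed the median was -0.05 and 2 were lower, against 452 of all 11513 features. After quantile normalization 3 were higher and 0 lower with a median of -0.03, against 681 higher and 481 lower of all features. PCNA, the sliding clamp of DNA replication, had 435 and 399 FPKM in INT libraries, against 475 and 472 FPKM in TOP1 libraries. CCNB1, the mitotic cyclin B1, had 101 and 95.7 FPKM in INT libraries, against 111 and 106 FPKM in TOP1 libraries. Both genes kept their groups apart. Of 14 helix-loop-helix repressors and related targets, 4 were above 0, 3 were lower and 0 higher at an unadjusted p under 0.05 and the median was -0.08. Without TOP1 replicate 0 the median was -0.03, with 7 above 0. Among them ID2, an inhibitor of DNA binding by basic helix-loop-helix factors, had 174 and 192 FPKM in INT libraries, against 204 and 211 FPKM in TOP1 libraries.

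Above 0 on balance were lists of sterol synthesis, interferon response and nucleic acid sensing, each with a median under 0.1. Of 27 tested genes of sterol and fatty acid synthesis, 17 were above 0, 5 were higher and 0 lower at an unadjusted p under 0.05 and the median was 0.06. The median was 0.04 without INT replicate 0 and 0.04 without TOP1 replicate 0. In both fits fewer were higher at an unadjusted p under 0.05, as over all features, and without INT replicate 0 some were lower. With length and GC trends removed 0 were higher and 0 lower, against 378 and 452 of all 11513 features, and the median was 0.03. FASN, fatty acid synthase, had 38.0 and 38.7 FPKM in INT libraries, against 33.6 and 32.0 FPKM in TOP1 libraries. SREBF2, the transcription factor that drives sterol synthesis genes, had 81.2 and 79.8 FPKM in INT libraries, against 70.1 and 71.5 FPKM in TOP1 libraries. For both, the libraries of a guide differed by far less than the guides.

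Of 18 tested interferon response genes, 11 were above 0, 3 were higher and 0 lower at an unadjusted p under 0.05, and the median of 0.07 became -0.03 with genes under a mean of 5 FPKM left out, 0.02 after quantile normalization and 0.01 without INT replicate 1. BST2, an antiviral membrane tether, had 1.73 and 1.26 FPKM in INT libraries, against 0.894 and 0.777 FPKM in TOP1 libraries. STAT2, which carries the interferon signal to the nucleus, had 8.78 and 8.73 FPKM in INT libraries, against 7.17 and 7.70 FPKM in TOP1 libraries. Of 10 tested features for nucleic acid sensing genes, 9 were above 0, 1 was higher and 0 lower at an unadjusted p under 0.05 and the median was 0.06. With length and GC trends removed 7 were above 0 and the median was 0.04. At an unadjusted p under 0.05, 0 were then higher and 0 lower, against 378 and 452 of all 11513 features. Among the 10 features TREX1 was measured jointly with ATRIP, and TLR9 jointly with TWF2. ADAR, which edits double-stranded RNA, had 78.7 and 75.04 FPKM in INT libraries, against 70.0 and 72.7 FPKM in TOP1 libraries. The summed FPKM of the interferon list was 98.9 and 104 in INT libraries, against 99.0 and 96.2 in TOP1 libraries, which overlap.

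Of 30 tested actin cytoskeleton genes, 18 were above 0, 7 were higher and 4 were lower at an unadjusted p under 0.05 and the median was 0.05. Without INT replicate 0 the direction turned, with 15 above 0 and a median of -0.015. The median was 0.07 without INT replicate 1 and 0.05 without TOP1 replicate 0. After quantile normalization 9 were higher and 0 lower, against 681 and 481 of all features, and the median was 0.098. FLNA, the actin crosslinker filamin A, had 63.3 and 59.0 FPKM in INT libraries, against 51.7 and 54.0 FPKM in TOP1 libraries. Glycolysis and hypoxia genes were split, with 20 of 29 above 0, 2 higher and 2 lower at an unadjusted p under 0.05 and a median of 0.04, which was -0.0046 without INT replicate 0. GAPDH had 2223 and 2106 FPKM in INT libraries, against 2354 and 2385 FPKM in TOP1 libraries, a difference of -0.13 that became 0.027 after quantile normalization. PKM2, a pyruvate kinase, had 328 and 312 FPKM in INT libraries, against 268 and 295.5 FPKM in TOP1 libraries. The medians of the other lists stood against -0.002 for all features. They were -0.04 for 16 heat shock genes, -0.03 for 25 genes of RNA surveillance and -0.03 for the 16 HEK293 markers. Above 0, they were 0.02 for 20 immediate early genes, 0.02 for 29 p53 targets and 0.05 for 9 NF-kB targets. All but that of RNA surveillance changed sign when 1 of the 4 libraries was left out: INT replicate 1 for heat shock (0.0094), TOP1 replicate 0 for the HEK293 markers (0.03), and TOP1 replicate 1 for immediate early genes (-0.04), p53 targets (-0.03) and NF-kB targets (-0.06). The median of the p53 targets was also -0.02 without INT replicate 0, and that of the heat shock genes was 0.04 after quantile normalization.

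Genes that make U6 transcripts, and the gene that shares its name with the TOP1 guide, had small differences. Of 24 tested genes for RNA polymerase III and the factors that start U6 transcription, 10 were above 0, 2 were higher and 3 lower at an unadjusted p under 0.05 and the median was -0.01, which was 0.0078 without INT replicate 0 and 0.01 without TOP1 replicate 1. POLR3K, a polymerase III subunit, had 85.1 and 82.7 FPKM in INT libraries, against 98.3 and 99.1 FPKM in TOP1 libraries. SNAPC4, the subunit of the snRNA activating complex that binds DNA, went the other way, with 9.14 and 9.26 FPKM in INT libraries, against 7.36 and 7.67 FPKM in TOP1 libraries. The gene TOP1, DNA topoisomerase I, had 49.9 and 51.1 FPKM in INT libraries, against 50.5 and 52.9 FPKM in TOP1 libraries, which overlap. Its log2 difference was -0.03 ± 0.06 (SE), and of 6 topoisomerase genes 4 were above 0 and none was under an unadjusted p of 0.05.

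**Figure D5:**
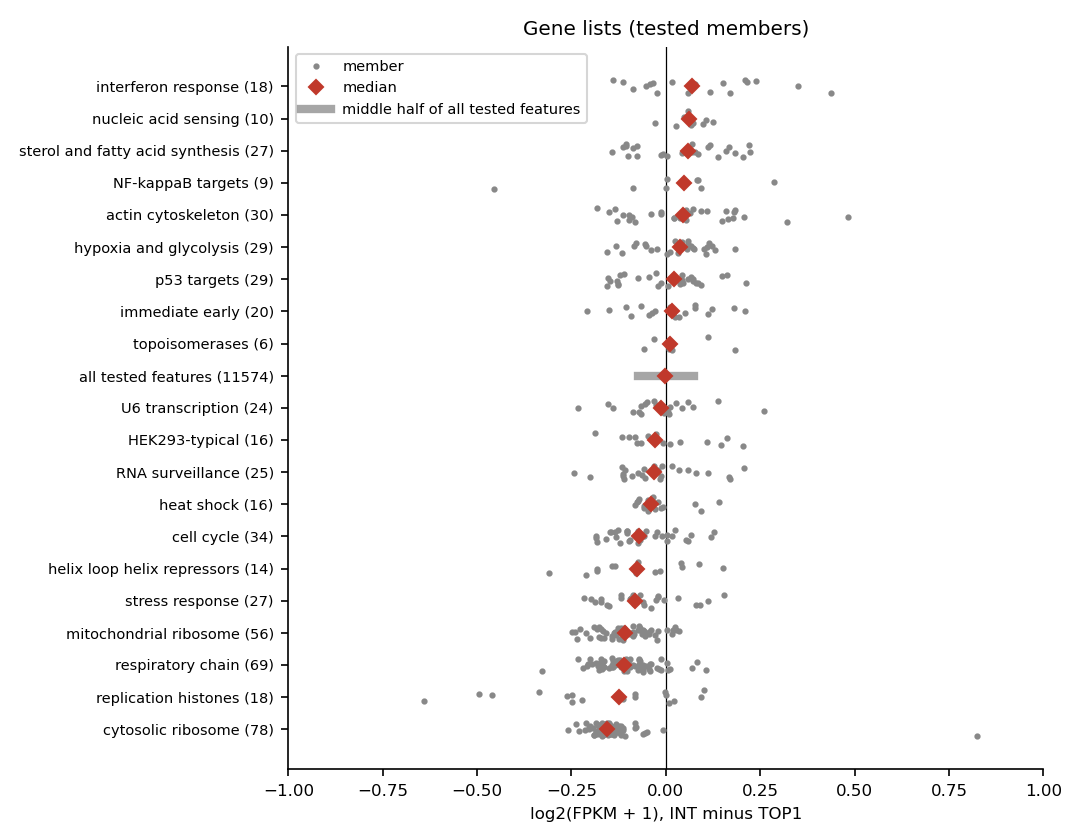
Difference between INT and TOP1 on the log2 scale for each tested member of each list (grey points) with the list's median (red diamonds), and, for all tested features, the median with a grey bar from the lower to the upper quartile. The cytosolic ribosome list has the lowest median (-0.16) and the interferon list the highest of lists with more than 1 tested gene (0.07), and no member was called.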

How the data were processed

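The authors deposited FPKM, 1 column per library, in a table of all 10 libraries. The tools listed in the submitters' processing notes are TopHat2 2.0.13 and Cuffdiff 2.2.1, with hg19; which step each did, the gene models and how libraries were scaled are not given in the sources used here. Features with no gene name (945, 2.31 to 2.47% of FPKM) were left out. Of the tested features, 509 name several genes and 93 share a name with another. Values were tested as log2(FPKM + 1) in R 4.3.3 by limma 3.58.1, using an intensity trend, all 10 libraries in 5 groups (5 residual degrees of freedom), two-sided p-values adjusted by Benjamini-Hochberg over 11574 features and a threshold of 0.05. limma was tested on simulated data. No library was dropped or imputed.

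Columns name the guide and an index of 0 or 1, which was not matched to the replicate numbers of the labels; libraries are called by the index. Relative depth comes from features averaging at most 0.05 FPKM: 78.5% of 10622 values were whole multiples of a step within a tolerance of 0.05, and the total of INT replicate 0 comes from 786 features (interquartile range 22100000 to 27100000). FPKM give no counts, so no counting interval is given. Lengths and GC content were matched by symbol for 11513 tested features (99.5%) from a GRCh38 annotation, used for these properties only.

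Genes named are the constructs, the 12 largest differences each way without overlap at a mean of at least 5 FPKM (as fewer than 10 endogenous genes passed), up to 3 members of each list with the largest difference, and TOP1; other members were named after their values were seen, and some genes that the rule names are not reported here. The comparison and the lists were chosen with earlier results of these data known. Alternatives were the pseudocount, filters, no trend, 2 rescalings (median of ratios, quantiles), library weights, a replicate block, fewer groups and leaving out each library; removing length and GC trends was added after the data were seen.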

Additional observations from a re-analysis of the deposited data

How the results depend on the processing

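The number of features called was 0 in limma's test and 0 at a pseudocount of 0.1, with median-of-ratios rescaling, quantile normalization, no trend, the 4 INT and TOP1 libraries alone, and length and GC trends removed. It was 2 with no filter on FPKM, both lower in INT: DEFB134 at -1.02 (adjusted p = 0.000386) and the TOP1 guide transcript at -0.47 (adjusted p = 0.00766). Both average under 1 FPKM over the 10 libraries. The TOP1 guide transcript was listed at 0 in every library outside the TOP1 group, so its direction was fixed by the design. Groups at 0 also add no spread to its test. The number called was 1 with a mean of at least 5 FPKM, with library weights and with the 8 libraries outside P4P6, in each case dCas9-VP64, whose log2 difference stayed 0.60. Leaving out a library, with the lone sample assumed to vary like the other groups, gave 0 to 1 called, and 0 to 1 called higher; the call without INT replicate 0 was ACTB,ACTG1 (0.75).

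Features at an unadjusted p under 0.05 numbered 1038 to 1532 without a library and 830 with length and GC trends removed. Gaussia per dCas9-VP64 was 0.896 with a pseudocount of 1 in both, against 0.879 without. Gaussia per Cypridina was 0.859 without that pseudocount and reversed to 1.04 with it. Cypridina was at 1.01 to 2.03 FPKM in the INT and TOP1 libraries and Gaussia at 257 to 366 FPKM. Adding 1 therefore changes the Cypridina level much and the Gaussia level little.

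Pairing libraries by index has no base in the labels, and the deviations of same-numbered INT and TOP1 libraries had a correlation of -0.0364. Over all 10 pairs of groups it was -0.0364 to 0.42, and 8 were over 0.1. With a replicate block 0 features were called, 2220 were under an unadjusted p of 0.05, and the adjusted p of dCas9-VP64 was 0.057.

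The named genes include many picked by size from these same libraries, and none passed the threshold in the main test. A count of values that stayed the same therefore says little about how firm they are. Of 1215 values of 82 named genes over all alternatives, 1202 kept direction and side of the threshold and 12 reversed. After quantile normalization these were TOP1 (0.0071), TOP2A (0.00026) and GAPDH (0.027), and with length and GC trends removed TOP1 (0.00054). Leaving out a library gave differences of -0.18 to 0.66 for IFI27, -0.024 to 0.35 for PLK3, -0.19 to 0.076 for TOP2A, -0.42 to 0.052 for CENPE, -0.32 to 0.0027 for EDA2R, -0.017 to 0.38 for EGR1, -0.021 to 0.21 for HSPA1B and -0.066 to 0.0010 for TOP1. Low FPKM carry few fragments, so genes near 1 FPKM are measured least precisely.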

Other observations

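The following genes are among those with the smallest unadjusted p-values by limma outside the genes described above. They were picked after their values were seen, and all had an adjusted p of 0.275. POLR2A, the largest subunit of RNA polymerase II, had 49.3 and 48.1 FPKM in INT libraries, against 41.4 and 41.6 FPKM in TOP1 libraries, a log2 difference of 0.23. FKBP11, a peptidyl-prolyl isomerase of the secretory pathway, had 4.89 and 4.79 FPKM in INT libraries, against 2.80 and 3.04 FPKM in TOP1 libraries (0.58). RERE, a nuclear receptor coregulator, had 10.1 and 9.81 FPKM in INT libraries, against 7.85 and 7.80 FPKM in TOP1 libraries (0.31). In these genes both libraries of each guide nearly coincide. ATXN2L, a paralog of the RNA-binding ataxin-2, had 63.7 and 61.5 FPKM in INT libraries, against 52.3 and 49.9 FPKM in TOP1 libraries (0.29). Below 0, C11orf10 had 227 and 224 FPKM in INT libraries, against 286 and 267 FPKM in TOP1 libraries (-0.29). GHITM, a protein of the inner mitochondrial membrane, had 117 and 114 FPKM in INT libraries, against 134 and 133 FPKM in TOP1 libraries (-0.20).

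Of the 10 endogenous features with a log2 difference of at least 0.5, 4 were higher in INT and 6 lower, and 6 had no overlap between the guides. B3GNT8, a glycosyltransferase, had 0.102 and 0.181 FPKM in INT libraries, against 12.4 and 0.174 FPKM in TOP1 libraries. ABCG2, a drug efflux transporter, had 1.68 and 0.890 FPKM in INT libraries, against 2.67 and 1.98 FPKM in TOP1 libraries. The B3GNT8 difference came from TOP1 replicate 0 alone.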
